A study of Mus musculus with 4 samples.

Results

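Prostaglandin synthesis was followed through 5 genes, found by their symbols among the 4099 complete gene rows of the count table: Pla2g4a, Ptgs1, Ptgs2, Ptges and Ptges2. All 5 were present. The data are single-cell RNA profiles of sorted CD45+ cells from mammary tumours that 4T1, a breast cancer line of BALB/c origin, had formed in BALB/c mice. The labels name 4 samples, 2 of wild-type tumours (CON1 and CON2) and 2 of Mif-depleted tumours (sgMif1 and sgMIif2), and each sample joined 3 tumours. Every sample went through collagenase dissociation, red cell lysis, removal of dead cells and a sort for CD45 that left out cells stained by propidium iodide. No label ties a cell to a sample: a barcode carries only a suffix, and no suffix is assigned to CON or sgMif here. The wild-type and Mif-depleted tumours were therefore not compared, and values are given by the authors' cell type names, with suffix 1 and suffix 2 apart.

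Prostaglandins are lipid mediators made from arachidonic acid. Cytosolic phospholipase A2 alpha, encoded by Pla2g4a, frees the acid from membrane phospholipids. The cyclooxygenases, encoded by Ptgs1 and Ptgs2, turn it into prostaglandin H2. Terminal synthases then make the single prostanoids, and Ptges and Ptges2 encode microsomal prostaglandin E synthases that make prostaglandin E2. Ptgs1 is usually described as constitutive, whereas Ptgs2 and Ptges are induced by cytokines and other stimuli, and prostaglandin E2 is known for dampening immune responses in tumours.

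The annotation named 45781 cells over 4 suffixes, and the counts used here held 16383 of them, all of suffixes 1 and 2. The counts covered all 13162 annotated cells of suffix 1, with a median of 1224.5 counted UMIs (unique molecular identifiers, 1 per captured transcript). Of the 11961 annotated cells of suffix 2 they covered 3221, or 26.9%, with a median of 1712. A level below is the number of UMIs of a gene per 10000 counted UMIs of a cell type name, with an exact Poisson 95% interval in brackets. These intervals, and those of shares and ratios, cover counting error only, because cells are not replicates. The table used here held genes of chromosomes 1 to 5, the last only in part, so a level is relative to those genes. Among the names were fibroblasts and epithelial, which a CD45+ sort would not be chosen to hold. The 5 fibroblast markers summed to 771.1 per 10000 in the fibroblasts of suffix 1 and to at most 0.723 in any other name. Of 5 epithelial markers 2 were measured, Lcn2 and S100a14. Their sum was 36.7 in epithelial cells against 150.9 in neutrophils of suffix 1, and 83.59 against 87.55 in suffix 2, so the sum does not set that name apart. S100a14, with no UMI in neutrophils of suffix 2, was found in epithelial cells of both suffixes and in other names, Macro_Maf among them. The name cDC1_Clec9a went against its markers: Ctsk, Atp6v0d2 and Mmp9, markers of osteoclasts, summed to 845.2 per 10000 in suffix 1 and 1152 in suffix 2, and the 2 measured dendritic markers, Batf3 and Cd40, to 1.19 and 0.562. In pDC the osteoclast markers summed to 213 and 275.1, and the 6 neutrophil markers to 767.9 and 348.3. In the other names of suffix 1 the osteoclast sum was at most 18.2. Both names are used here only as the authors' labels. The neutrophil sum was also high in Macro_Mgl2, at 1220 and 754.4, in Macro_Vegfa, at 686 and 325.2, and in Mono_Nr4a1, at 443.1 and 765.3. In neutrophils it was 5908 and 5827. The dendritic markers were highest in cDC1_Ccl22, at 19.75 and 13.99. The 12 barcode sequences that both suffixes share with counts were kept.

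The promoters are shown first, since Ptgs2 and Ptges are described as inducible and Ptgs1 as constitutive. Ptgs2 lies on chromosome 1 at chr1:150100031-150108227 on the plus strand of GRCm38 (GENCODE M21), with no annotated gene overlapping it. Pla2g4a is its nearest protein-coding neighbour on the upstream side, at chr1:149829618-149961290 on the minus strand, 138740 bases away. The noncoding Ptgs2os lies on the minus strand, its start parted by 67 bases from that of Ptgs2, and both genes are read away from each other. Ptgs1 lies at chr2:36230426-36252272 on the plus strand, Ptges at chr2:30889471-30929863 on the minus strand and Ptges2 at chr2:32395896-32405772 on the plus strand. Ptgs1 and Ptges each overlap 1 other annotated gene and so does Pla2g4a, but none of these genes has a row in the count table. The 250 bases before the annotated start are printed 5′ to 3′ for 3 members, from RefSeq (GRCm38.p6). Capitals mark matches, on either strand, to the CRE core CGTCA, the E-box CACGTG, the C/EBP palindrome TTGCGCAA, the TATA box TATAAA, the CAAT box CCAAT, the GC box GGGCGG or the NF-κB consensus, searched by its name.
Ptgs2: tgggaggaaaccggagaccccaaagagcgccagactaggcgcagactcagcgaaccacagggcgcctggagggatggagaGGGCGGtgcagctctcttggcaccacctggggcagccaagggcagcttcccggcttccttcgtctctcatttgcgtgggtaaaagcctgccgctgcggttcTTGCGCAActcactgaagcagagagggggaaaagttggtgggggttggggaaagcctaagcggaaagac
Ptgs1: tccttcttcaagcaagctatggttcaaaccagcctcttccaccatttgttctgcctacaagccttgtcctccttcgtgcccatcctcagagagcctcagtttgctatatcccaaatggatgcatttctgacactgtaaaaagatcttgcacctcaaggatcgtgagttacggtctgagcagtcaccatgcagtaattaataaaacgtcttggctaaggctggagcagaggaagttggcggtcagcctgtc
Ptges: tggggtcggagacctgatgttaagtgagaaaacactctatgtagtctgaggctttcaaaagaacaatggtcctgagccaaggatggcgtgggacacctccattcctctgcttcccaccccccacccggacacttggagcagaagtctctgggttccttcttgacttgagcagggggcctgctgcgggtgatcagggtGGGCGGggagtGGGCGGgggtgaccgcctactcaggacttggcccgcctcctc

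The Ptgs2 stretch is chr1:150099781-150100030, that of Ptgs1 chr2:36230176-36230425, and that of Ptges chr2:30903298-30903547, read on the minus strand. The RefSeq start of Ptges, base 30903297, lies inside the GENCODE span given above, which begins at 30929863 on that strand. The Ptgs2 stretch held the C/EBP palindrome at 69 to 62 bases before the start, a motif in 0.164% of 32851 promoter stretches of this length, and a GC box, found in 32.7%. The Ptges stretch held 2 GC boxes. None of the motifs was in the Ptgs1 stretch. Just after the annotated start of Ptgs2, 30 bases at chr1:150100033-150100062 held the CRE core and the E-box, which share 2 bases.
Ptgs2 after the start: agtcaccactaCGTCACGTGgagtccgctt

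In the 50 bases after the start, the CRE core was found in 3.49% and the E-box in 1.08% of all promoters. The C/EBP palindrome, the CRE core and the E-box are known elements of the Ptgs2 promoter. A match describes letters and shows no binding.

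Ptgs2, the inducible cyclooxygenase, was highest in Ly6c2 monocytes, in a small monocyte name and in Vegfa macrophages, and lowest in B cells, CD4 T cells, natural killer cells and the name cDC1_Clec9a. In Mono_Ly6c2 it stood at 40.98 per 10000 [39.56, 42.45] over 368 cells of suffix 1 and at 55.77 [52.99, 58.65] over 149 cells of suffix 2. In Macro_Vegfa it stood at 31.64 [31.03, 32.25] over 871 cells and at 37.73 [36.52, 38.97] over 253. Both names were thus above 30 per 10000 in both suffixes. Mono_Itgal gave 37.7 [34.44, 41.18] over 41 cells and 149.5 over only 5 cells, too few to place it.

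**Figure D1:**
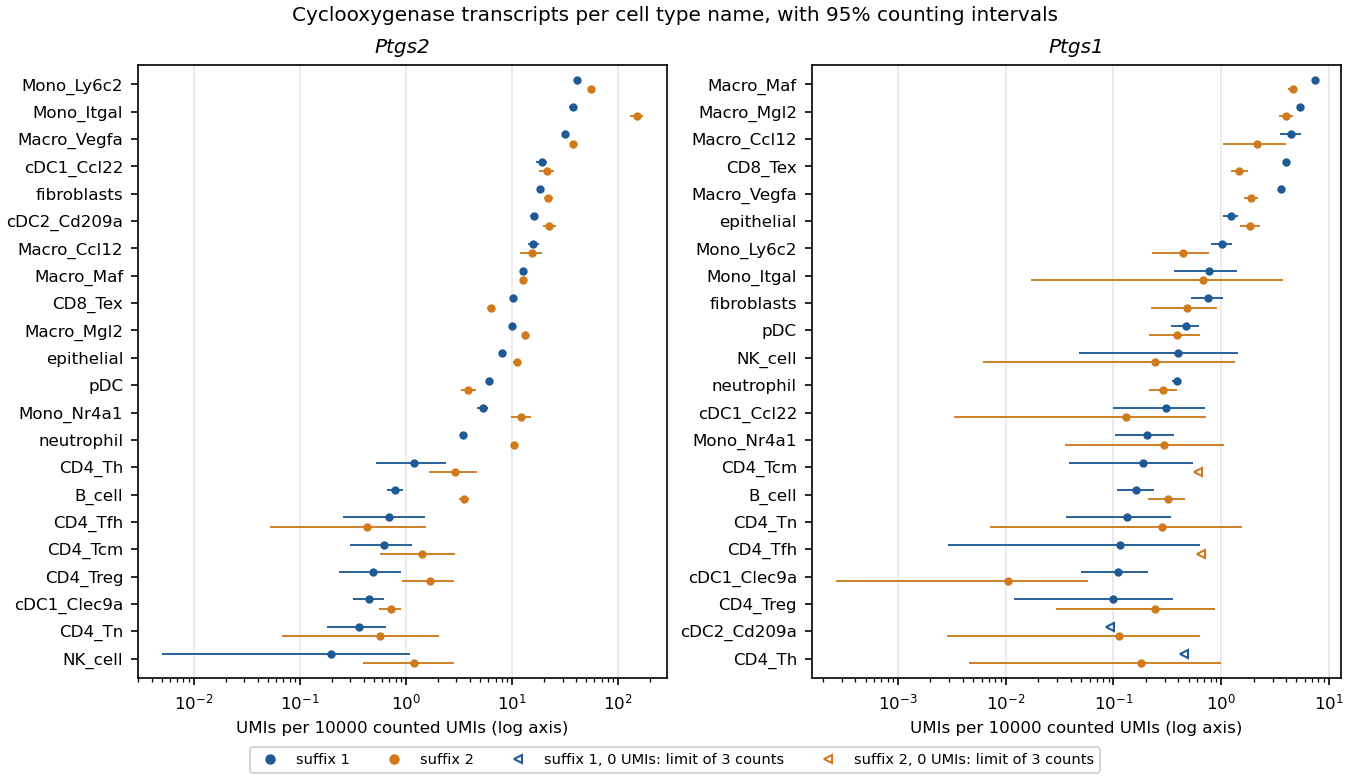
UMIs of Ptgs2 (left) and Ptgs1 (right) per 10000 counted UMIs, on a log axis, for 22 cell type names in suffix 1 (blue) and suffix 2 (orange). Points are levels, lines their exact Poisson 95% intervals, and open triangles the limit that a count of 0 allows. Mono_Ly6c2 leads Ptgs2 in suffix 1 at 40.98 and Macro_Maf leads Ptgs1 at 7.36.

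Dendritic, stromal and further macrophage names made up a middle range of Ptgs2. The Ccl22 dendritic cells (cDC1_Ccl22) were at 19.02 in suffix 1 and 21.18 in suffix 2. Fibroblasts were at 18.45 and 22.06. The Cd209a dendritic cells (cDC2_Cd209a) were at 16.05 and 22.55. Macro_Ccl12 was at 15.85 and 15.37, Macro_Maf at 12.81 and 12.85, and Macro_Mgl2 at 10.09 and 13.4. Epithelial cells were at 8.12 and 11.19. Mono_Nr4a1, named for a factor of patrolling monocytes, was at 5.29 and 12.29.

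Of the lymphoid names all but CD8_Tex were low. CD8_Tex was at 10.34 [9.91, 10.77] in suffix 1 and 6.39 [5.85, 6.97] in suffix 2, with 10 or more UMIs in 13.1% of its cells of suffix 1, and its macrophage markers are given with Ptgs1 further on. B cells gave 0.79 in suffix 1 and 3.54 in suffix 2. The 5 CD4 names and natural killer cells lay between 0.20 and 1.20 in suffix 1 and between 0.43 and 2.89 in suffix 2. The name cDC1_Clec9a, with its osteoclast markers, was at 0.45 [0.32, 0.62] and 0.72 [0.56, 0.91], at a median of 4857 counted UMIs in suffix 1 against 1808 in Mono_Ly6c2. pDC was at 6.14 and 3.89.

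In suffix 1, 10 of the 21 neighbouring pairs in the order of Ptgs2 had a ratio whose interval left out 1, and in suffix 2 it was 6 of 21. Mono_Ly6c2 and Mono_Itgal were not separated in suffix 1, and Mono_Itgal was above Macro_Vegfa by 0.25 [0.12, 0.38] on the log2 scale. Macro_Vegfa was above cDC1_Ccl22 by 0.73 [0.57, 0.90].

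Set against all other cells of suffix 1, Ptgs2 was 2.11 [2.05, 2.16] higher on the log2 scale in Mono_Ly6c2 and 2.04 [2.01, 2.08] higher in Macro_Vegfa. In suffix 2 the ratios were 2.15 [2.07, 2.23] and 1.79 [1.73, 1.85]. By UMIs per cell, the ratios of suffix 1 were 1.99 in Mono_Ly6c2 and 2.85 in Macro_Vegfa. With the calprotectin genes S100a8 and S100a9 out of the denominator they were 1.77 and 1.70. A gene is called higher or lower here when both sides together hold 50 or more UMIs and the interval of the ratio lies wholly beyond 2-fold. By this rule Ptgs2 was the 1 member of 5 called in Mono_Ly6c2, where 8.91% of 3514 genes were called in either direction, and the 1 of 5 called in Macro_Vegfa, where 11.3% were. The median log2 ratio was 1.15 over the members and 0.04 over all genes in Mono_Ly6c2, and 0.92 against 0.19 in Macro_Vegfa.

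Ptgs2 transcripts were concentrated in a minority of cells. In Macro_Vegfa of suffix 1, 281 of 871 cells had 10 or more UMIs and held 87.3% of the UMIs, while 236 cells had none. In Mono_Ly6c2, 81 of 368 cells had 10 or more and held 82.9%, and the highest cell had 205. In fibroblasts, 17 of 140 cells held 87.0%. In neutrophils 91 of 5712 cells reached 10 UMIs, and they held 42.4%. No cell of cDC1_Clec9a in suffix 1 exceeded 4 UMIs. The cut of 10 UMIs takes no account of depth. Median depths were 3457 UMIs in Macro_Vegfa, 1808 in Mono_Ly6c2, 2301 in fibroblasts and 1120 in neutrophils. Cells with a Ptgs2 UMI were deeper than those without in fibroblasts, at 5819 against 666, and in Macro_Vegfa, at 3740 against 2448. In neutrophils they were shallower, at 812 against 1236. The part of depth in these counts was not tested.

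**Figure D2:**
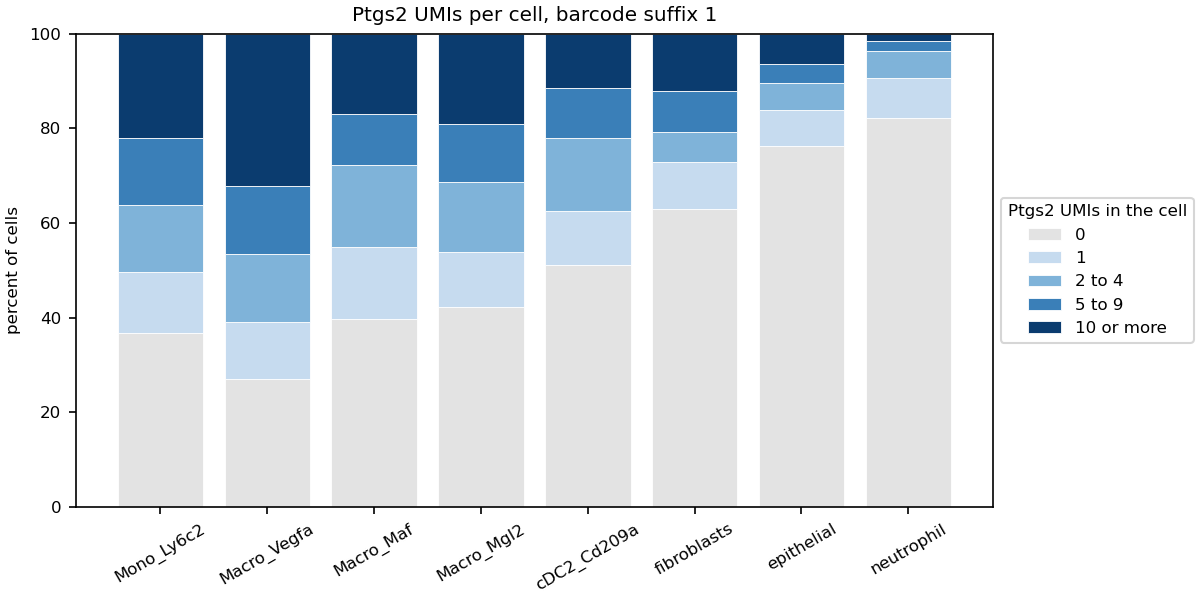
Percent of cells (vertical axis) by number of Ptgs2 UMIs in the cell, from 0 (grey) to 10 or more (dark blue), for 8 cell type names of suffix 1. Cells with 10 or more UMIs are most frequent in Macro_Vegfa, at 32.3%, and least frequent in neutrophils, at 1.59%. The counts are not adjusted for depth, with a median of 3457 UMIs in Macro_Vegfa and 1120 in neutrophils.

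A Ptgs2 UMI was found in 63.3% [58.2, 68.3] of Mono_Ly6c2 cells and in 72.9% [69.8, 75.8] of Macro_Vegfa cells of suffix 1, with exact Clopper-Pearson intervals. With each cell thinned to 500 UMIs and shallower cells left out, the shares were 51.7% of 327 cells and 48.0% of 846 cells. Naive CD4 T cells (CD4_Tn), taken as a background for transcripts from outside the cell, gave 2.17% at a median depth of 623 UMIs, and 2.16% after thinning.

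Neutrophils held 12.5% of the Ptgs2 UMIs of suffix 1 and made up 43.9% of the cells. Their level was 3.42 [3.31, 3.54] in suffix 1 and 10.45 [9.95, 10.96] in suffix 2. The calprotectin genes S100a8 and S100a9 dominate neutrophil RNA here, and with both taken out of the denominator the levels were 8.25 and 24.69. A Ptgs2 UMI was found in 17.8% of the neutrophils of suffix 1 and 41.3% of those of suffix 2, or 10.9% and 28.6% after thinning. The shares in lymphocytes were also higher in suffix 2: a Ptgs2 UMI was found in 4.31% and 15.5% of B cells, and in 4.09% and 17.1% of regulatory T cells (CD4_Treg), or after thinning in 2.79% and 5.83% of B cells and in 1.08% and 6.76% of regulatory T cells. Median depths were 1120 and 976 UMIs in neutrophils, 558 and 1352 in B cells and 812 and 884 in regulatory T cells. The neutrophil share was above those of B cells, regulatory T cells and CD4_Tn in each suffix. The part of RNA from outside the cell in the difference between suffixes was not tested. Genotype, handling and library of the suffixes cannot be told apart. The immediate early list of 12 genes, which dissociation can raise, summed to 118.2 per 10000 in neutrophils of suffix 1 and 146 in those of suffix 2.

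Ptgs1, the constitutive cyclooxygenase, followed another order, led by macrophages. It stood at 7.36 [7.06, 7.68] in Macro_Maf, 5.38 [5.05, 5.73] in Macro_Mgl2, 4.45 [3.52, 5.55] in Macro_Ccl12 and 3.59 [3.38, 3.80] in Macro_Vegfa of suffix 1. In suffix 2 the values were 4.62, 4.02, 2.17 and 1.91 in the same order. All 4 macrophage names were lower in suffix 2, and their order was kept. They held 72.5% of the Ptgs1 UMIs in suffix 1 and 70.7% in suffix 2, from 15.3% and 18.4% of the cells.

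The monocytes that led Ptgs2 had little Ptgs1. Mono_Ly6c2 was at 1.02 [0.81, 1.27] in suffix 1 and 0.44 [0.23, 0.77] in suffix 2, and Mono_Nr4a1 at 0.21 and 0.29. Epithelial cells were at 1.22 and 1.87, fibroblasts at 0.75 and 0.48 and neutrophils at 0.39 and 0.29. The Cd209a dendritic cells had no Ptgs1 UMI in 131 cells of suffix 1, which allows a level of up to 0.093 at 3 counts, and 1 UMI in 34 cells of suffix 2. A Ptgs1 UMI was found in 71.1% of Macro_Maf cells and in 1.23% of B cells, whose median depth was 558 UMIs against 3652 in Macro_Maf. After thinning the shares were 27.8% and 0.450%.

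Against all other cells Ptgs1 was 2.30 [2.22, 2.37] higher on the log2 scale in Macro_Maf of suffix 1 and 2.30 [2.12, 2.48] higher in suffix 2. Macro_Mgl2 gave 1.53 [1.43, 1.63] and 1.83 [1.60, 2.06]. By UMIs per cell the ratios of suffix 1 were 3.20 and 3.25. In Macro_Maf 2 of the 5 members were called higher, Ptgs1 and Pla2g4a, and 1 lower, Ptges, where 15.1% of all 3514 genes were called in either direction. Of the 21 neighbouring pairs in the order of Ptgs1, 4 were separated in suffix 1 and 0 in suffix 2.

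CD8_Tex, a T cell name, ranked high for Ptgs1, at 4.02 [3.76, 4.30] in suffix 1 and 1.48 [1.22, 1.77] in suffix 2. The 5 macrophage markers summed to 215.5 per 10000 in CD8_Tex of suffix 1, against 9.27 to 15.02 in the other lymphoid names and 240.7 to 453.9 in the 4 macrophage names. The 6 T cell markers summed to 28.7 in CD8_Tex and to 54.3 to 195.3 in the CD4 names. In a split chosen after the data were seen, the 106 CD8_Tex cells without a UMI of the complement genes C1qa, C1qb or C1qc had a Ptgs1 level of 0.106 [0.013, 0.382], and the 253 cells with 5 or more had 5.41 [5.06, 5.79]. In suffix 2 the values were 0.172 in 91 cells and 3.10 in 52. Pla2g4a went with the same split, at 0.053 [0.001, 0.295] on 1 UMI and at 1.60 [1.41, 1.81] in suffix 1. The Ptgs1 level of suffix 1 without C1q rested on 2 UMIs. These groups also differed in depth, with medians of 1170 and 5447 UMIs in suffix 1 and 1509 and 5914 in suffix 2. The part of depth in the split was not tested. Ptgs2 was at 4.81 [3.88, 5.91] in the cells without C1q and at 12.17 [11.64, 12.73] in those with 5 or more. B cells of suffix 1 without C1q were at 0.148 for both Ptgs1 and Pla2g4a and at 0.39 [0.25, 0.57] for Ptgs2. The CD8_Tex cells without C1q were thus near them for Ptgs1 and Pla2g4a and above them for Ptgs2. In suffix 2 Ptgs2 was at 2.01 [1.40, 2.80] in CD8_Tex cells without C1q and at 1.85 [1.37, 2.43] in B cells without C1q. In CD8_Tex cells with 5 or more it was at 10.74 [9.69, 11.88].

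**Figure D3:**
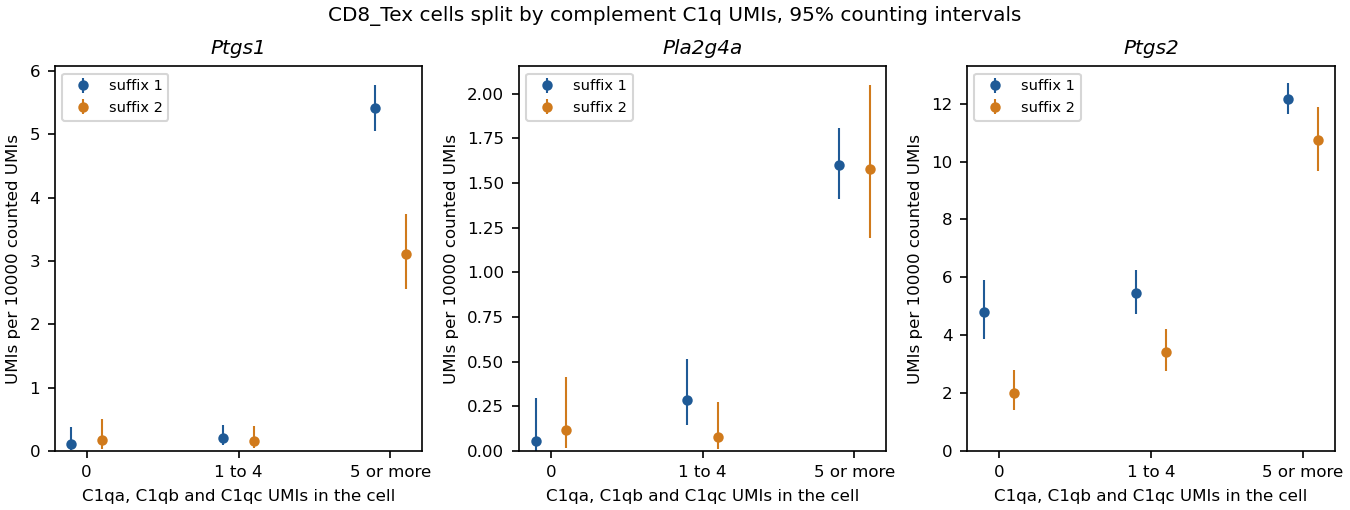
Levels of Ptgs1, Pla2g4a and Ptgs2 (UMIs per 10000 counted UMIs, with exact Poisson 95% intervals) in CD8_Tex cells with 0, 1 to 4 or 5 or more C1q UMIs, for suffix 1 (blue) and suffix 2 (orange). In suffix 1, Ptgs1 stands at 0.106 without C1q UMIs and at 5.41 with 5 or more, and Ptgs2 at 4.81 and 12.17. The groups differ in depth, with medians of 1170 and 5447 UMIs in these.

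The balance of the cyclooxygenases was read as the Ptgs2 share of the summed Ptgs1 and Ptgs2 UMIs, which compares names and not the amounts of the 2 transcripts. It was 97.6% [97.0, 98.1] in Mono_Ly6c2 and 89.8% [89.3, 90.4] in Macro_Vegfa of suffix 1. In Macro_Maf it was 63.5% [62.3, 64.7] and in Macro_Mgl2 65.2% [63.4, 67.0]. In the Cd209a dendritic cells all 520 UMIs were of Ptgs2. The suffix 2 shares were 99.2% in Mono_Ly6c2, 95.2% in Macro_Vegfa, 73.6% in Macro_Maf and 76.9% in Macro_Mgl2. Each was above its counterpart in suffix 1, and the order of monocytes over Macro_Vegfa over Macro_Maf was the same.

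**Figure D4:**
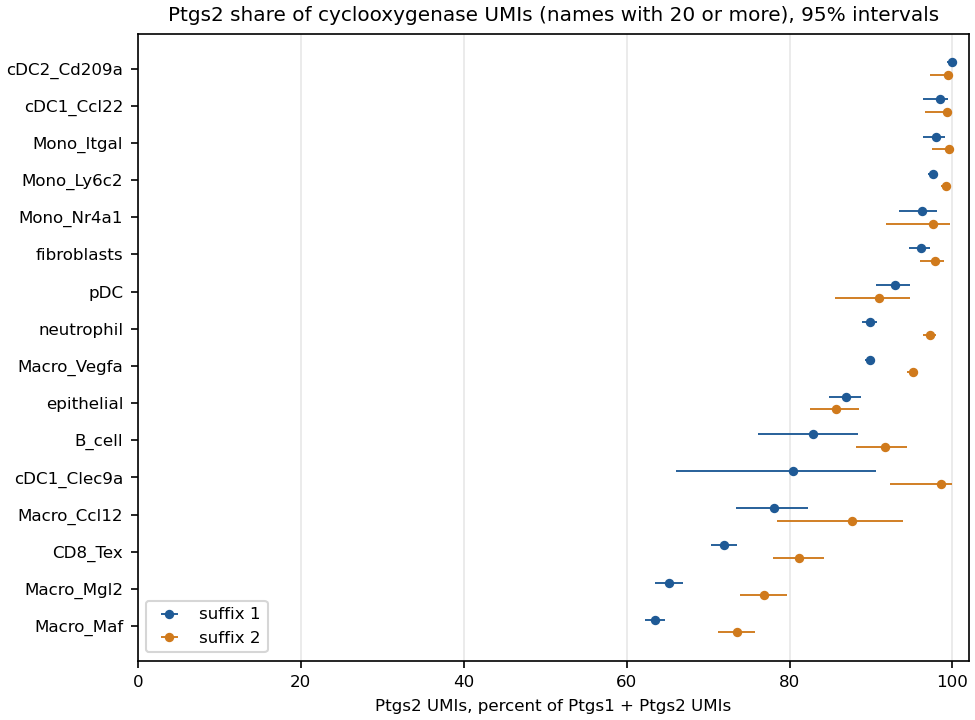
Ptgs2 UMIs as a percent of Ptgs1 and Ptgs2 UMIs (horizontal axis) for the cell type names with 20 or more such UMIs, in suffix 1 (blue) and suffix 2 (orange), with exact 95% intervals. Macro_Maf has the lowest share, 63.5%, and cDC2_Cd209a the highest, 100%, in suffix 1.

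Within the macrophages, Macro_Vegfa and Macro_Maf were set against each other. Ptgs2 was 1.30 [1.25, 1.36] higher on the log2 scale in Macro_Vegfa of suffix 1 and 1.55 [1.46, 1.65] higher in suffix 2. Ptgs1 differed in the other direction, by -1.04 [-1.14, -0.93] in suffix 1, which is not wholly beyond 2-fold, and by -1.27 [-1.53, -1.02] in suffix 2, which is. Pla2g4a differed by -0.48 [-0.63, -0.33] and Ptges2 by 0.04 [-0.33, 0.42] in suffix 1. Thus 1 of the 5 members was called in this pair in suffix 1, where 1.95% of 2721 genes were called in either direction.

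Pla2g4a, which supplies the arachidonic acid, was spread over macrophages, Ly6c2 monocytes and stromal cells. It stood at 2.74 [2.56, 2.94] in Macro_Maf, 2.27 in Macro_Mgl2, 2.23 in Mono_Ly6c2, 1.97 in fibroblasts, 1.97 in Macro_Vegfa and 1.38 in epithelial cells of suffix 1. In suffix 2 the values were 2.52, 2.36, 2.32, 1.35, 1.99 and 1.64. The leading names lay within a factor of 2 of each other, and 19 of 21 neighbouring pairs in suffix 1 and 21 of 21 in suffix 2 were not separated. Neutrophils were at 0.094 [0.076, 0.114] and 0.167 [0.110, 0.242], and B cells at 0.169 and 0.213. The name cDC1_Clec9a was at 0.89 and 1.07.

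Against all other cells Pla2g4a was 1.70 [1.58, 1.82] higher on the log2 scale in Macro_Maf of suffix 1 and 1.31 [1.09, 1.54] higher in suffix 2, or 2.60 by UMIs per cell in suffix 1. In Mono_Ly6c2 it was 1.15 [0.92, 1.38] and in Macro_Vegfa 1.10 [0.97, 1.23], neither wholly beyond 2-fold. In neutrophils it was -4.07 [-4.37, -3.79]. All 5 members were called lower in neutrophils of suffix 1. There 76.1% of all genes were called in either direction and the median log2 ratio of all genes was -2.39, so this count is not particular to the members. With S100a8 and S100a9 out of the denominator, Pla2g4a in neutrophils of suffix 1 was at 0.225 in place of 0.094.

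**Figure D5:**
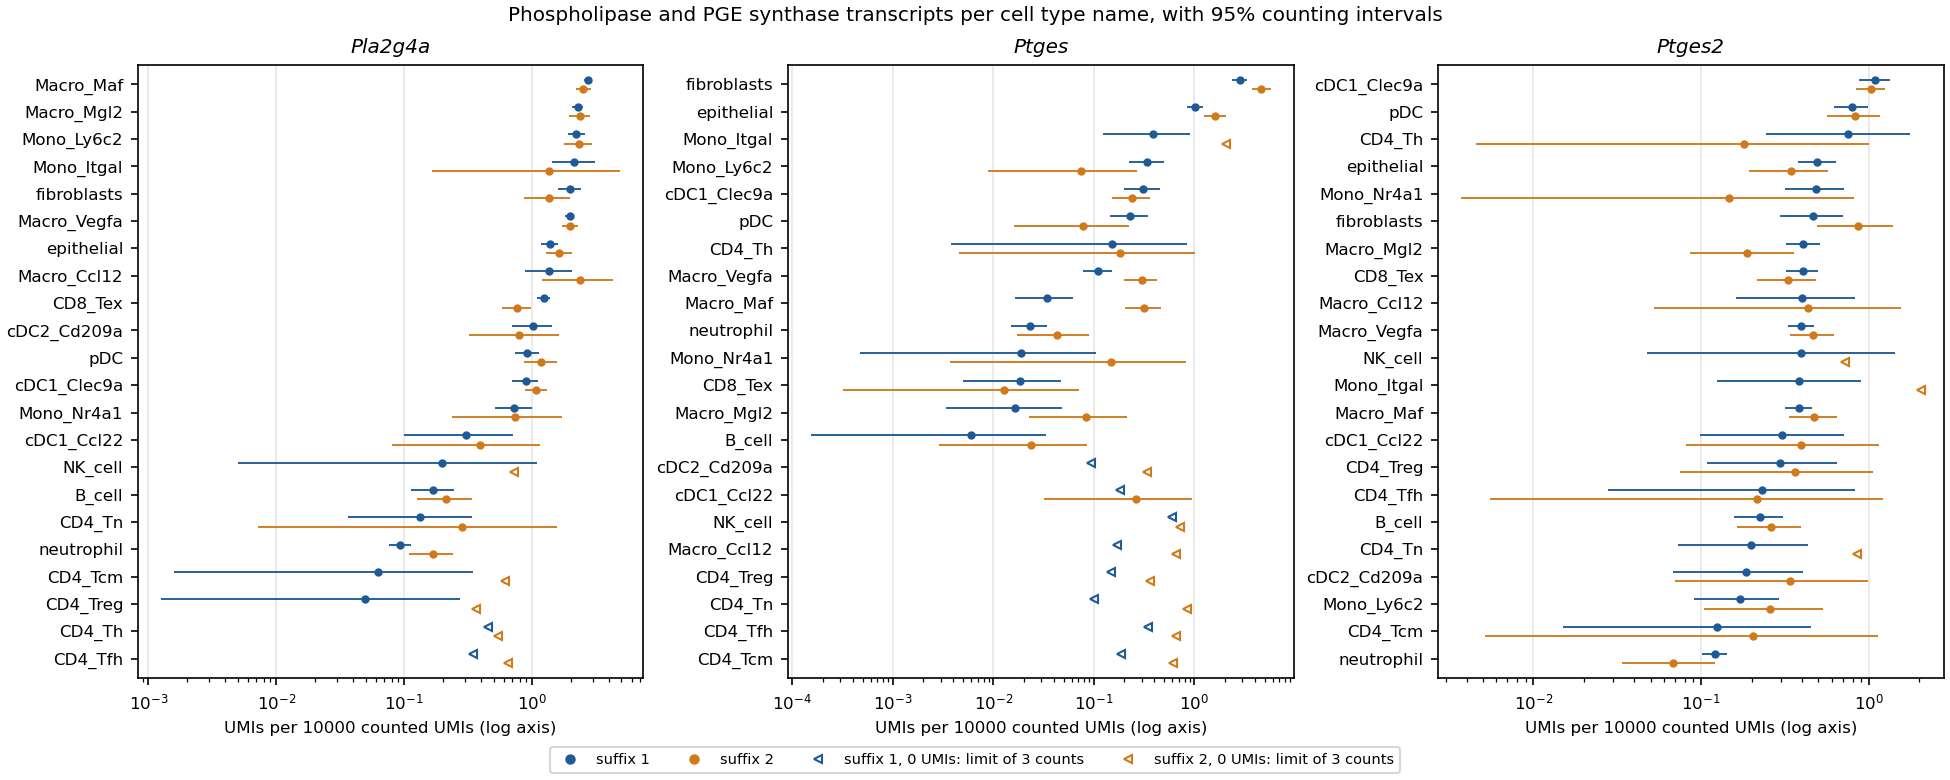
UMIs of Pla2g4a, Ptges and Ptges2 per 10000 counted UMIs, on log axes, for 22 cell type names in suffix 1 (blue) and suffix 2 (orange), with exact Poisson 95% intervals; open triangles mark the limit that a count of 0 allows. Pla2g4a is spread over macrophages, monocytes and stromal names, Ptges stands highest in fibroblasts at 2.84 and epithelial cells at 1.01, and Ptges2 in cDC1_Clec9a at 1.09.

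Ptges, the inducible prostaglandin E synthase, was mainly found outside the immune names. It stood at 2.84 [2.39, 3.35] in fibroblasts and 1.01 [0.84, 1.21] in epithelial cells of suffix 1, and at 4.63 [3.70, 5.72] and 1.61 [1.26, 2.04] in suffix 2. These names held 62.3% [57.5, 67.0] of 422 Ptges UMIs in suffix 1 and 60.7% [54.4, 66.7] of 257 in suffix 2, from 4.91% and 4.85% of the cells. The log2 ratio of fibroblasts to epithelial cells was 1.49 [1.13, 1.85] in suffix 1 and 1.52 [1.05, 2.00] in suffix 2.

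The names that led Ptgs2 had less Ptges than fibroblasts and epithelial cells. Mono_Ly6c2 was at 0.34 [0.22, 0.50] in suffix 1 and 0.07 [0.01, 0.27] in suffix 2. Its log2 ratio to all other cells was 1.29 [0.66, 1.87] in suffix 1 and -2.07 [-5.12, -0.20] in suffix 2, neither called. Macro_Vegfa was at 0.11 [0.08, 0.15] and 0.30 [0.20, 0.43], and Macro_Maf at 0.03 [0.02, 0.06] and 0.32 [0.21, 0.46]. The suffix 2 values rest on 26 UMIs in 7 cells of Macro_Maf and 29 UMIs in 14 cells of Macro_Vegfa. By share of cells with a UMI the intervals of the suffixes overlapped, at 1.22% [0.56, 2.31] and 3.06% [1.24, 6.20] in Macro_Maf and at 2.41% [1.50, 3.66] and 5.53% [3.06, 9.11] in Macro_Vegfa. Of the 22 names, 8 had no Ptges UMI in suffix 1, with Cd209a dendritic cells (131 cells, up to 0.093 at 3 counts) and Macro_Ccl12 (131 cells, up to 0.171) among them.

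Ptges was called higher in fibroblasts, at a log2 ratio of 4.85 [4.55, 5.15] against all other cells of suffix 1 and 4.49 [4.10, 4.87] in suffix 2 (5.51 by UMIs per cell in suffix 1), and in epithelial cells, at 3.24 [2.93, 3.55] and 2.80 [2.38, 3.20]. In fibroblasts 1 member was called higher and 1 lower, Ptgs1 at -1.49 [-2.00, -1.03], where 22.7% of all genes were called in either direction. In epithelial cells 1 member of 5 was called, where 28.9% of genes were.

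Ptgs2 and Ptges were found together mostly in fibroblasts and epithelial cells. Of the 135 cells of suffix 1 with a UMI of both, 48 were epithelial, 30 fibroblasts, 17 Macro_Vegfa and 10 Mono_Ly6c2. Of the 68 in suffix 2, 24 were epithelial and 15 fibroblasts. Among fibroblasts of suffix 1, 57.7% [43.2, 71.3] of 52 cells with Ptgs2 also had Ptges, against 17.0% [9.87, 26.6] of 88 cells without. The cells with Ptgs2 were also deeper, with a median of 5819 UMIs against 666, and the part of depth in this difference was not tested. In Macro_Vegfa, 2.68% of 635 cells with Ptgs2 had Ptges, at a median of 3740 UMIs, and 1.69% of 236 cells without, at 2448.

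Ptges2, a synthase described as constitutive, was detected in all 22 names of suffix 1. It stood at 1.09 [0.87, 1.34] in cDC1_Clec9a and 0.79 [0.62, 0.99] in pDC of suffix 1, and at 1.03 [0.84, 1.25] and 0.82 [0.56, 1.16] in suffix 2. These are the names with the high osteoclast markers, 845.2 and 213 per 10000 in suffix 1, and their part in the Ptges2 levels was not tested. Fibroblasts were at 0.47 in suffix 1 and at 0.86 [0.49, 1.40] in suffix 2, above pDC there on 16 UMIs. Their osteoclast markers summed to 31.86 in suffix 2. CD4_Th of suffix 1 was at 0.75 [0.24, 1.75] on 5 UMIs. Macrophages were between 0.38 and 0.41 in suffix 1 and between 0.19 and 0.47 in suffix 2. Mono_Ly6c2 was at 0.17 and 0.26 and neutrophils at 0.12 and 0.07. Against all other cells the log2 ratio in cDC1_Clec9a was 1.91 [1.58, 2.23] in suffix 1 and 1.66 [1.31, 2.00] in suffix 2, or 3.08 by UMIs per cell in suffix 1. In that name 1 member was called higher and 2 lower, Ptgs2 and Ptgs1, where 21.1% of genes were called in either direction. Only 1 of 21 neighbouring pairs was separated in each suffix.

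The other genes of prostanoid metabolism that the table held were few. Of 9 terminal synthases 2 were measured. Ptgis, the prostacyclin synthase, was at 1.26 in fibroblasts of suffix 1 and 1.13 in those of suffix 2, with 62 UMIs in fibroblasts and 11 in all other cells of suffix 1. Prxl2b, a prostamide and prostaglandin F synthase, was at 1.74 in Macro_Maf and 1.18 in Macro_Vegfa, and was called higher in both in suffix 1. Of 9 prostanoid receptors 1 was measured, Ptger3, a receptor of prostaglandin E2. It was at 1.05 in fibroblasts of suffix 1, on 52 UMIs, and at 0.16 in those of suffix 2, on 3 UMIs. Of 5 genes of degradation and transport 1 was measured, Ptgr1, a prostaglandin reductase, which was called higher in Macro_Maf, at 1.30 [1.08, 1.52], and in fibroblasts, at 1.49 [1.03, 1.91] on the log2 scale. Of 20 further phospholipases A2 3 were measured, and Pla2g12a, a secreted one, was called higher in cDC1_Clec9a in both suffixes, at 2.02 and 2.17 per 10000. None of 6 leukotriene and lipoxygenase genes was measured.

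Inducers and partners of Ptgs2 gave 10 measured genes of 13. In Macro_Vegfa of suffix 1, 4 were called higher and 0 lower: the interleukin genes Il1a, Il1b and Il6 and Il1rn, the interleukin 1 receptor antagonist. The median log2 ratio of the 10 was 0.72, against 0.19 over all genes, of which 11.3% were called in either direction. In Mono_Ly6c2 3 were called higher, Il1a, Il6 and Cebpb, where 8.91% of all genes were called in either direction. The median of the 10 there was 0.93, against 0.04 over all genes. Cebpb, which encodes a factor that binds C/EBP elements, was at 264.2 in Mono_Ly6c2, 167.5 in neutrophils, 161.1 in Macro_Vegfa, 245.3 in Mono_Nr4a1, 193.9 in Mono_Itgal, 125 in Macro_Maf and 61.3 in fibroblasts of suffix 1. Mono_Nr4a1 was thus near Mono_Ly6c2 for Cebpb in suffix 1, while its Ptgs2 level was 5.29 against 40.98. In suffix 2 Cebpb was at 200.7 in 26 cells of Mono_Nr4a1 and at 242.3 in Mono_Ly6c2. Ptgs2 was at 12.29 and 55.77 in these. The part of Cebpb in the Ptgs2 levels was not tested. In fibroblasts 3 of the 10 were called higher, Il6, Jun and Tnfaip6, and 4 lower, Il1a, Il1b, Il1rn and Cebpb, where 22.7% of all genes were called in either direction; the median of the 10 was -0.12, against 0.30 over all genes. In cDC1_Clec9a 6 were called lower and 0 higher, where 21.1% of all genes were called, with a median of -2.66 against 0.12.

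The immediate early list, of which 12 of 16 genes were measured, summed to 337 per 10000 in Mono_Ly6c2, 277.3 in Macro_Vegfa, 358.2 in Macro_Maf and 466.5 in Cd209a dendritic cells of suffix 1. Macro_Maf was thus above Macro_Vegfa in this list and below it in Ptgs2. The part of dissociation in the Ptgs2 levels was not tested.

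The noncoding transcripts next to Ptgs2 were distributed differently from it. Ptgs2os was highest in epithelial cells, at 0.39 in suffix 1 and 0.51 in suffix 2, and was called higher there in both. Ptgs2os2, at chr1:150159043-150164948 on the minus strand, was highest in neutrophils, at 0.73 and 1.18, with a log2 ratio of 2.18 [1.99, 2.38] and 3.32 [2.94, 3.71] against all other cells. Whether counting used strand is not given in the sources used here. Neither transcript overlaps Ptgs2 in the annotation.

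The genes most alike to each member were ranked by Pearson's r of log2(level + 0.1) over 22 cell type names of suffix 1 with 50 or more cells, among 2925 genes with 200 or more UMIs. The names share 1 suffix and its depth, so r is a description. Ptgs2 was most like F11r, a junctional adhesion molecule (r = 0.90), Slc7a11, a cystine transporter (0.89), and Il1b (0.86). Ptgs1 was most like Kcnj10, a potassium channel (0.91), Fcrls (0.89) and C1qb (0.89). Pla2g4a was most like Cttnbp2nl (0.95), and Ptgr1 (0.91) was also among its first 5. Ptges was most like Cdc42bpa (0.87), Ddr2, a collagen receptor (0.86), and Hspg2, the perlecan gene (0.85). Ptges2 was most like Sdhc, a subunit of succinate dehydrogenase (0.84), Mtx2 (0.80) and Psmb7 (0.80). Ranked in suffix 2 instead, 1, 2, 3, 2 and 0 of the first 5 genes recurred for Ptgs2, Ptgs1, Pla2g4a, Ptges and Ptges2. By Spearman's rho in suffix 1, 0, 3, 1, 0 and 2 recurred, and by UMIs per cell 1, 4, 0, 3 and 1, so that many of these names depend on the measure. Between members, r was 0.78 for Ptgs2 with Pla2g4a, 0.73 for Ptgs1 with Pla2g4a, 0.62 for Ptgs2 with Ptgs1 and 0.31 for Ptgs2 with Ptges.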

How the data were processed

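Single-cell RNA was measured by 10x Genomics in 4 samples, 2 CON and 2 sgMif. The authors deposited UMI counts per gene and cell, and their cell type names as text. Cell Ranger, Seurat and the build GRCm38 (mm10) are named per the submitters' processing notes, without roles or versions; for filters, doublet treatment and strand the sources used here say nothing. Of the table, 1 incomplete gene row was left out. Results for 1 of 23 cell type names are not reported here; its cells stay among "all other cells" and in the likeness measure. Shares of a gene's UMIs and of cells are over the 22 reported names.

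No filter was put on cells and no doublets were called. UMIs were summed per name and suffix. Levels have exact Poisson, shares exact Clopper-Pearson and ratios exact conditional binomial 95% intervals (scipy 1.17.1 and numpy 2.4.6 under Python 3.11.15). A count of 0 takes a floor of 3 counts. The planned edgeR test between groups was not run, since no suffix could be tied to a sample. The ratio and its rule were tested on simulated counts. The text names the 5 members in every case, genes of the lists that were measured, and up to 3 of the 5 first alike genes. Members and lists were chosen with earlier results of these data known. Alternatives were suffix 2, other denominators, UMIs per cell, and leaving out shallow, deep or gene-rich cells.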

Additional observations from a re-analysis of the deposited data

How the results depend on the processing

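The log2 ratios of members in their leading names, 10 in all, were recomputed under 6 alternatives. The direction was the same in all 60 values, and 56 kept their side of the 2-fold rule. The exceptions were Pla2g4a in Macro_Mgl2, 1.26 in suffix 1, which fell to 1.11 in suffix 2 and to 1.03 once the calprotectin genes left the denominator, and Ptges2 in pDC, 1.42 in suffix 1, which fell to 1.10 and 1.13 under the same settings; all 4 intervals reach below 2-fold. The cause was not tested. Each of the 10 ratios was lower without the calprotectin genes in the denominator. Ptgs1 in Macro_Maf went from 2.30 to 1.88, Pla2g4a in Macro_Maf from 1.70 to 1.28 and Ptges2 in cDC1_Clec9a from 1.91 to 1.51. The Ptgs2 share of cyclooxygenase UMIs moved by more than counting error in suffix 2, to 99.2% in Mono_Ly6c2, 95.2% in Macro_Vegfa and 73.6% in Macro_Maf. By UMIs per cell, 8 of the 10 ratios moved by over 1.5 times: Ptgs2 in Macro_Vegfa from 2.04 to 2.85, Ptgs1 in Macro_Maf from 2.30 to 3.20 and in Macro_Mgl2 from 1.53 to 3.25, Pla2g4a there from 1.70 to 2.60 and from 1.26 to 2.98, Ptges in fibroblasts from 4.85 to 5.51, and Ptges2 in cDC1_Clec9a from 1.91 to 3.08 and in pDC from 1.42 to 2.79. By the same measure, Mono_Ly6c2 for Ptgs2 and Macro_Maf for Ptgs1 and for Pla2g4a took place 2 in place of place 1. Thinning lowered the shares of cells with a UMI, to 9.81% for Pla2g4a in Macro_Maf, 9.62% for Ptges in fibroblasts and 4.00% for Ptges2 in cDC1_Clec9a, from 51.3%, 32.1% and 37.0%.

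No paired analysis was possible because the columns carry no sample or replicate number, and leaving out replicates was not run for the same reason. Suffix 2 rests on 26.9% of its annotated cells. Ptges and Ptges2 rest on 422 and 903 UMIs in suffix 1, so that their absence from small names was not detectable at this depth. Cells with transcripts of several cell types were not removed.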
